A study of Mus musculus with 4 samples.

Results

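The genes described here encode receptors for vasopressin, oxytocin and prostaglandins and both cyclooxygenases, which start prostaglandin synthesis. They are Avpr1a, Avpr2, Oxtr, Ptger1, Ptger2, Ptger3, Ptger4, Ptgir, Ptgs1 and Ptgs2, 10 genes of the 29924 gene names with a probe. Avpr1a and Ptger2 were chosen by their fall in the contrast reported below, and the others as their relatives. The values of the 10 genes are therefore given as a description and without a p-value, and their passing of the threshold is no support. Every probe that the array design assigns to one of these names was taken, 12 in all, with a second probe for Avpr2 and Ptger3. All 10 genes were among the 22461 genes tested.

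The samples were ureters of wildtype NMRI mouse embryos of E12.5, kept in culture on membranes for 18 h in medium with 10 µM IWP-2 or with DMSO, its solvent, alone (control). IWP-2 inhibits Porcupine, the enzyme that attaches the lipid which WNT ligands need to be secreted, in all cells of the explant. Each of the 4 two-color arrays compared RNA of 1 pool of IWP-2 treated ureters with RNA of 1 pool of control ureters. The arrays are labeled as 4 replicates and the paper's methods give n = 4, which is used here for each group. The legend of the paper's figure names 2 pools each, so it is not settled that all 4 pairs of pools are independent. The dyes were swapped between arrays: on arrays 1 and 3 the treated RNA was labeled red (AlexaFluor647), on arrays 2 and 4 green (AlexaFluor555).

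Vasopressin and oxytocin are peptide hormones that act on G protein-coupled receptors. Avpr1a and Oxtr couple to Gq and raise calcium, which contracts smooth muscle, whereas Avpr2 couples to Gs and raises cAMP, best known from water retention in the collecting duct of the kidney. Prostaglandins are made locally from arachidonic acid by the cyclooxygenases Ptgs1 and Ptgs2 and terminal synthases. Prostaglandin E2 acts on Ptger1, which raises calcium, on Ptger2 and Ptger4, which raise cAMP, and on Ptger3, which mainly lowers it, while Ptgir is the receptor for prostacyclin. In the ureter, prostaglandins are known for tuning the contractions of the smooth muscle layer.

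The sequences shown first belong to Avpr1a and Ptger2, the genes on which the report turns. The stretches directly before the start site come from RefSeq (GRCm38.p6) and run 5′ to 3′ on the plus strand. Capitals mark CTTTG or its reverse complement CAAAG, the core of the motif bound by LEF and TCF factors, through which WNT signaling reaches its target genes.
Avpr1a promoter, chr10:122448249-122448498: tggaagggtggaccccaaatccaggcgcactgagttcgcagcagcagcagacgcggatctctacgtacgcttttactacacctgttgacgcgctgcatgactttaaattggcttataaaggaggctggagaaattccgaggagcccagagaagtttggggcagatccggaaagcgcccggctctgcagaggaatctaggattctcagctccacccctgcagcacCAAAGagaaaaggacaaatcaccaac
Ptger2 promoter, chr14:44987861-44988110: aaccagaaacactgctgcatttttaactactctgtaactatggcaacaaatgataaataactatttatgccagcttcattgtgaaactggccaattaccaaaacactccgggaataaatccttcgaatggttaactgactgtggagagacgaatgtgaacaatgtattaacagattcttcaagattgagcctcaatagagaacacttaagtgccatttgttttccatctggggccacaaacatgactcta

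In these 250 bases Avpr1a held 1 core, on the minus strand, which begins at position −26 from the start site, and Ptger2 held 0. The core CTTTG was present on either strand in 48.6% of the 32851 promoters of the same length, the longer forms CTTTGA and CTTTGT, which contain it, in 13.8% and 16.5%, and the TATA box TATAAA in 12.4%. Of the 10 genes, 9 matched an entry, and 4 of these held CTTTG (Avpr1a, Avpr2, Ptger3 and Ptgs2). None held CTTTGA, Avpr2 held CTTTGT, and Avpr1a and Avpr2 held TATAAA, in Avpr1a at position −137. The GC content was 53.6% for Avpr1a and 38.0% for Ptger2. A match describes the letters of the window and is no sign of a bound site.

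The transcripts were read out by probes of 60 bases, positioned by the array design on mm9. The first 30 bases of 4 probes are shown, because the changes of Avpr1a and Ptger2 each rest on a single probe, whereas Ptger3 was read at places 39404 bases apart.
Avpr1a probe, chr10:121890135-121890164, plus strand: cttagtacctagtcggtgaatccagattca
Ptger2 probe, chr14:45622004-45622033, plus strand: taaatgcagtcagaccaaatgaaattcatt
Ptger3 brighter probe, chr3:157307508-157307537, plus strand: ctaaatgttcagctagagctgttaaaagga
Ptger3 dimmer probe, chr3:157268044-157268073, plus strand: accagatcttggatccctgggtttatctgc

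Gene spots had a median raw intensity of 368 to 711 in control and of 385 to 694 in treated channels, depending on the array. Pairs of arrays had a Pearson r of 0.625 to 0.831 for the log2 ratio across genes, which are not independent replicates. Of the 22461 genes, 3360 passed the test as lower (15.0%) and 4069 as higher (18.1%), 33.1% in all, with a median log2 ratio of 0.00. Without array 3, 2177 genes passed as lower. Axin2, a direct target of WNT signaling and the check of the treatment, had log2 ratios of −1.48, −1.68, −1.57 and −1.53 on arrays 1 to 4 (2.95-fold lower, adjusted p = 1.23e-05 in limma). These come from its brightest probe, and the mean over all probes of Axin2 gave a smaller fall, with a log2 ratio of −1.07. The p-values throughout measure the spread between the 4 arrays that is left after a dye term per gene. The variance of each gene is also drawn by limma toward that of all genes tested. A ratio that differs between the dye orientations can therefore still pass.

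The control channels gave a clear Avpr1a signal, and nearly all of it was gone with IWP-2. The processed intensity of Avpr1a, background-subtracted and dye-normalized, was 851, 889, 997 and 1078 in the control channels of arrays 1 to 4. In the IWP-2 channels it was 43.9, 28.3, 31.7 and 49.8. Each control value thus lay far above each treated value, and the spread within a group was small beside the distance between the groups.

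On the normalized log2 scale, the level of Avpr1a was 11.88 ± 0.08 (SD, n = 4) in control and 7.76 ± 0.26 in IWP-2 treated ureters. The log2 ratios were −3.87, −4.32, −4.33 and −3.97, with a mean of −4.12 ± 0.23, which is a 17.4-fold lower level. This was the lowest mean ratio of the 22461 genes. The red and green orientations of the treated sample gave −4.10 and −4.14, so the value hardly depended on the dye. The raw intensities in the treated channels, between 127 and 327, were above the 99th percentile of the negative control spots, which lay between 36.4 and 90.2, and all spots of the probe were well above background. The deposited fold changes, given as signed folds, were −19.6, −31.7, −31.4 and −21.7 on arrays 1 to 4.

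Ptger2, the EP2 receptor, showed the other large fall. Its processed intensity was 160, 181, 241 and 214 in the control channels, and 17.0, 19.9, 23.5 and 28.2 in the IWP-2 channels. As for Avpr1a, the groups were far apart on each array. The normalized level was 9.65 ± 0.15 (SD, n = 4) in control and 7.24 ± 0.14 in treated ureters.

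The log2 ratios of Ptger2 were −2.36, −2.41, −2.60 and −2.28, with a mean of −2.41 ± 0.13, or 5.33-fold lower, in place 10 among the falls. The size of this fall depended on the treatment of dim signals, since the offset of 50 that was added to each intensity draws the ratios of dim probes toward 0. With the processed intensities, which carry no such offset, Ptger2 was 8.93-fold lower (log2 ratio −3.16), and with the deposited folds 9.32-fold. The corresponding values for Avpr1a were 25.1-fold and 25.5-fold. The raw intensities of Ptger2 in the treated channels, 97.5 to 173, still exceeded the 99th percentile of the negative controls on each array.

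**Figure D1:**
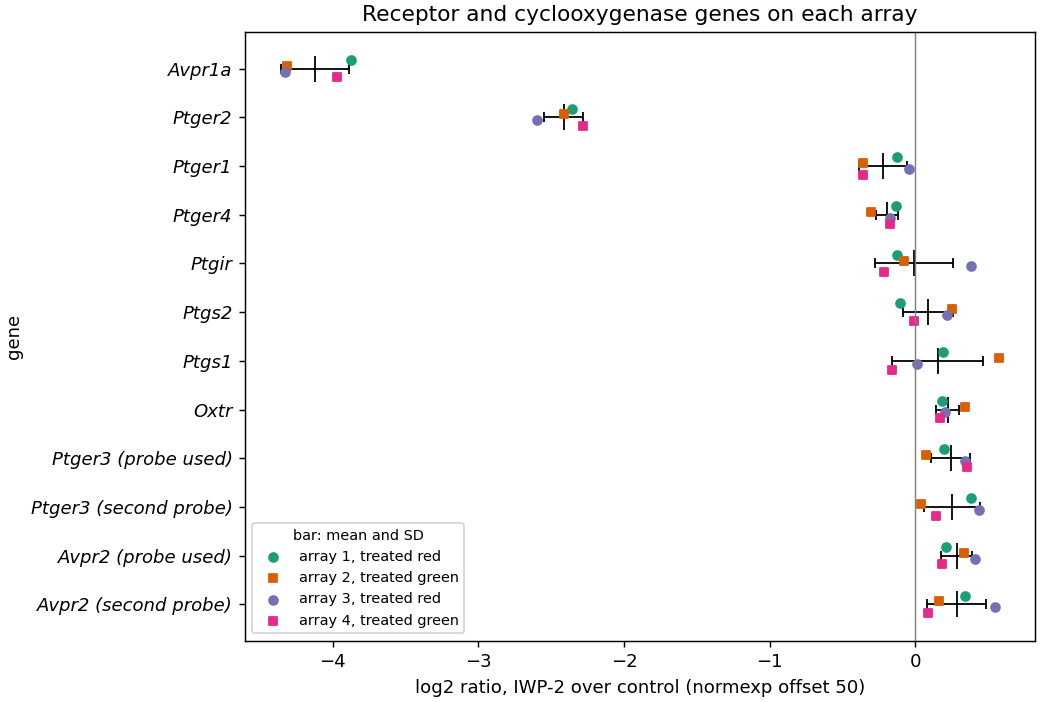
Log2 ratio of IWP-2 over control (x axis) for the 12 probes of the 10 genes (y axis). Points are the 4 arrays, circles with the treated sample in red and squares with it in green, and the bars give the mean and SD. Avpr1a and Ptger2 lie at −4.12 and −2.41, and the means of all other probes lie between −0.22 and 0.28.

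Avpr2 and Oxtr had small ratios of the opposite sign to Avpr1a. For Avpr2, the Gs-coupled vasopressin receptor, the brighter probe gave log2 ratios of 0.21, 0.33, 0.41 and 0.18 (mean 0.28 ± 0.11), and control levels of 9.21 to 9.47 overlapped with treated levels of 9.42 to 9.67. The dimmer probe, whose target begins 96 bases upstream on the same strand, gave 0.34, 0.16, 0.54 and 0.09 (mean 0.28 ± 0.20), with control levels of 8.52 to 8.81 just below treated levels of 8.86 to 9.10. Both probes were positive on all 4 arrays, but the dimmer one was higher with the treated sample in red by 0.32.

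Oxtr, the oxytocin receptor, is the other Gq-coupled receptor of the group. Its log2 ratios were 0.18, 0.34, 0.20 and 0.17 (mean 0.22 ± 0.08), positive on each array. The control levels of 7.51 to 7.84 overlapped with the treated levels of 7.69 to 8.18, since arrays differed more in the level of this dim probe than channels did within an array. With the processed intensities, the log2 ratio was 0.35.

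The other prostaglandin E2 receptors had much smaller ratios than Ptger2. Ptger4, which like Ptger2 raises cAMP, had one of the brighter probes, with processed intensities of 671, 632, 802 and 766 in control and 611, 509, 722 and 685 in treated ureters. The log2 ratios were −0.13, −0.30, −0.17 and −0.17 (mean −0.20 ± 0.08), or 1.14-fold lower. Levels of 11.40 to 11.51 in control and of 11.12 to 11.38 with IWP-2 did not overlap, but the distance between them was small.

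Ptger1, the calcium-coupled EP1 receptor, had log2 ratios of −0.12, −0.36, −0.04 and −0.36 (mean −0.22 ± 0.16). Control levels of 9.31 to 9.37 lay just above treated levels of 8.97 to 9.29. The ratio depended on the dye, with a mean of −0.08 where the treated sample was red and −0.36 where it was green, and without the dye term in the fit Ptger1 did not pass the threshold.

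Ptger3, which lowers cAMP, gave log2 ratios of 0.20, 0.07, 0.34 and 0.36 with the brighter probe (mean 0.24 ± 0.13) and of 0.38, 0.04, 0.44 and 0.14 with the dimmer one (mean 0.25 ± 0.19). The probes were alike in mean and positive on all 4 arrays, and the ratio was close to 0 on array 2 with both. The dimmer probe depended more on the dye, with 0.41 where the treated sample was red and 0.09 where it was green, against 0.27 and 0.21 for the brighter one. The levels of the groups overlapped for both probes, from 9.31 to 9.89 in control and from 9.38 to 10.09 with IWP-2 for the brighter one.

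Ptgir, the prostacyclin receptor, had a mean log2 ratio of −0.01 ± 0.27, with −0.12, −0.08 and −0.21 on arrays 1, 2 and 4 and 0.38 on array 3. Array 3 alone was positive, and the mean difference was smaller than the spread. Control levels of 7.46 to 7.83 and treated levels of 7.53 to 7.84 covered nearly the same range.

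**Figure D2:**
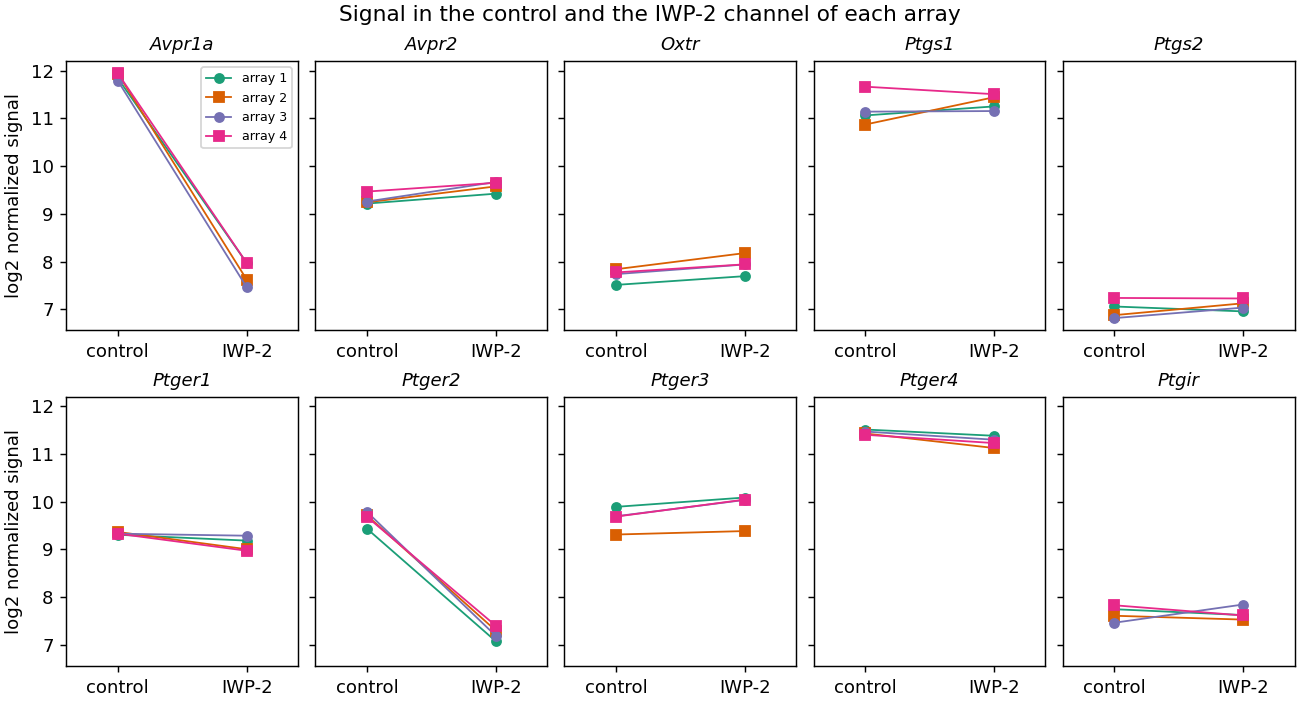
Normalized log2 signal (y axis) in the control and the IWP-2 channel (x axis) for the brightest probe of each of the 10 genes, with 1 line per array. The lines drop steeply for Avpr1a (from 11.88 to 7.76 on average) and Ptger2 (from 9.65 to 7.24) and are nearly flat in the other panels. Levels of different genes are not comparable, since each comes from another probe.

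The cyclooxygenases varied more between arrays than between groups. Ptgs1, the constitutive enzyme, had log2 ratios of 0.19, 0.57, 0.01 and −0.16 (mean 0.15 ± 0.31), and its processed intensity was 479, 410, 622 and 906 in control and 537, 625, 635 and 823 in treated ureters. The highest ratio belonged to array 2, without which the fitted log2 ratio, balanced for dye, was −0.03. Ptgs2, the inducible enzyme, had the dimmest probe of the set, with processed intensities between 10.9 and 23.9 in control and between 12.2 and 23.8 in treated ureters. Its log2 ratios were −0.10, 0.25, 0.22 and −0.01 (mean 0.09 ± 0.17). Neither gene passed the threshold, and at such a low signal a change of Ptgs2 would be understated.

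Taking the brightest probe of each gene, 4 of the 10 genes passed the threshold of the test as lower (Avpr1a, Ptger1, Ptger2 and Ptger4) and 3 as higher (Avpr2, Oxtr and Ptger3). Since the genes were selected on this contrast, these counts stand beside the 15.0% and 18.1% of all genes without further reading. The 4 lower genes were also those whose treated levels all lay below the control levels, which held for 11.5% of all genes, and for 0 of the 10 did they all lie above, which held for 10.9%. The median log2 ratio was 0.04 over the 10 genes and 0.12 without Avpr1a and Ptger2, and the largest size among the remaining 8 genes was 0.28. Avpr1a and Ptger2 passed under all 14 alternative settings, Avpr2 under 13, Ptger1 under 12, Oxtr under 11, and Ptger3 and Ptger4 under 10. As the genes were selected on this contrast, these tallies only describe how the calls depend on the processing and are no support for the falls. Ptger4 no longer passed without array 2 or without array 3, and Ptger3 without array 3 or array 4, whereas Ptgs1 passed without array 4 with a fitted log2 ratio of 0.34.

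**Figure D3:**
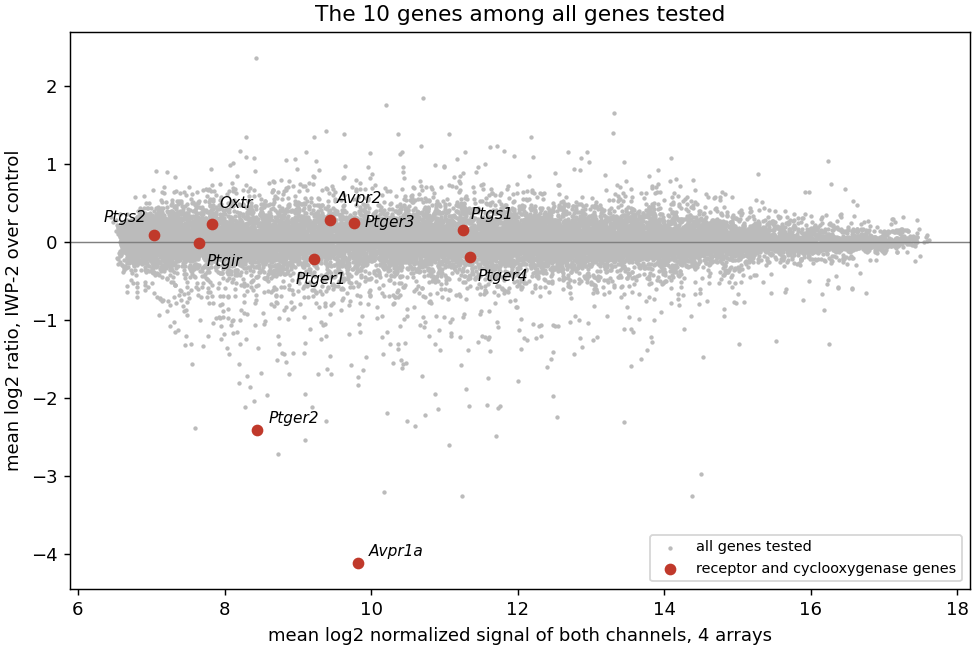
Mean log2 ratio of IWP-2 over control (y axis) against the mean normalized log2 signal of both channels (x axis) for the 22461 genes tested (gray) and the 10 genes (red). Avpr1a is the lowest point, Ptger2 lies among the lowest, and the other 8 genes lie within the main cloud, between −0.22 and 0.28.

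The explants are mixed tissue, and fewer cells of a type cannot be told apart from less RNA per cell. The counts of markers stand beside the 15.0% of all genes tested that passed as lower and the 18.1% that passed as higher. All 7 smooth muscle markers passed as lower, with a median log2 ratio of −0.58 ± 0.16 (SD of the array medians) and a summed processed intensity of 7524 to 14058 in control and 4827 to 8066 in treated ureters. By the paper, smooth muscle cells of the ureter differentiate only at later stages than that of these explants. The values of this list are therefore no measure of differentiated muscle cells. All 7 markers of ureteric epithelium passed as higher, with a median of 0.30 ± 0.09 and sums of 40882 to 54041 and 46388 to 67147. Of the 6 markers of ureteric mesenchyme, 1 passed as lower (Tbx18, −0.74 ± 0.26) and 1 as higher (Pdgfrb, 0.80 ± 0.07). The median of 0.02 thus covers large ratios in both directions, and the sums were 84239 to 116098 and 90734 to 118138. Markers of other cell types had medians between 0.19 and 0.27. Of 6 markers each, 4 passed as higher for endothelium, blood and macrophages, 3 for neural crest and neurons, and 5 for nephron progenitors, where 1 passed as lower. Among the blood markers that passed, Hbb-y was higher only with the treated sample in red (0.61 and 0.73 on arrays 1 and 3, −0.10 and −0.14 on arrays 2 and 4). The summed intensity of each of these 5 lists was higher in the treated than in the control channel on all 4 arrays, as it was for the epithelium, and that of the smooth muscle list was lower on all 4, while the ranges of control and treated channels overlapped for all of them. The sums ran from 11949 to 16825 in control and from 13520 to 19284 in treated channels for endothelium, and from 65048 to 102564 and 87913 to 122001 for blood. They ran from 3039 to 4683 and 3772 to 5415 for macrophages, from 7306 to 12397 and 9160 to 14701 for neural crest and neurons, and from 11242 to 14125 and 12188 to 16070 for nephron progenitors. All markers were above background in all channels, so that none was at 0. The part of these differences in the falls of Avpr1a and Ptger2 was not tested.

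The other genes of both systems were taken from lists, and their adjusted p comes from limma, with Benjamini-Hochberg correction across all 22461 genes tested. Each count of a list below stands beside the share of all genes tested, of which 15.0% passed as lower and 18.1% as higher. No list was tested as a set. The genes around the vasopressin and oxytocin receptors showed no difference past the threshold, 0 of 5 tested in limma, with a median log2 ratio of −0.04. Avpr1b, the receptor of pituitary corticotrophs, had a log2 ratio of −0.11 ± 0.16, and Oxt, the oxytocin gene, 0.11 ± 0.13. Lnpep, which degrades both peptides, had −0.09 ± 0.23, Avpi1, a vasopressin-induced gene, −0.04 ± 0.09, and Aqp2, the water channel controlled through Avpr2, 0.02 ± 0.04. Avp itself was not well above background. The probes of Avpr1b, Oxt and Aqp2 were dim, with mean control levels of 6.86, 7.32 and 7.77. A change of these genes would thus be understated. At an unadjusted p under 0.05 the count was 0 as well. Without array 2, 1 gene of this list passed as lower.

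Of the 10 genes of prostanoid synthesis, 4 passed as lower and 1 as higher, with a median of −0.09. Pla2g4a, the phospholipase that releases arachidonic acid, was lower at a log2 ratio of −0.47 ± 0.06. Ptgis, the prostacyclin synthase, was lower as well, with −0.25 ± 0.12, while its dimmer probe gave −0.08 ± 0.08. Ptges3 and Akr1b3 had −0.17 ± 0.31 and −0.14 ± 0.09, and Ptges3 was positive on arrays 2 and 4. Hpgds, a prostaglandin D synthase, was higher at 0.27 ± 0.13. Ptges, the inducible prostaglandin E synthase, had 0.08 ± 0.08 with the brighter and −0.22 ± 0.13 with the dimmer probe and did not pass by the brighter one, and neither did Ptges2, Ptgds, Pla2g6 or Tbxas1. The count of lower genes was 2 without array 1, array 3 or array 4.

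Of the 6 genes of prostanoid removal, 4 passed as higher and 0 as lower, with a median of 0.19. Slco2a1, the transporter that takes up prostaglandins, rose by 0.74 ± 0.12 (0.57, 0.77, 0.80 and 0.81, adjusted p = 0.000248 in limma). Abcc4, which exports prostaglandins and cyclic nucleotides, rose by 0.51 ± 0.11 (0.44, 0.53, 0.65 and 0.43, adjusted p = 0.000897 in limma). The reductases Ptgr1 and Ptgr2 rose by 0.20 ± 0.13 and 0.19 ± 0.09. Hpgd, the dehydrogenase that inactivates prostaglandin E2, had −0.09 ± 0.25, and Cbr1 had 0.05 ± 0.07. Without array 2 or array 3, 2 genes passed as higher.

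The other prostanoid receptors comprised 3 genes above background, 0 of which passed in limma (1 at an unadjusted p under 0.05). Tbxa2r, the thromboxane receptor, had a log2 ratio of −0.11 ± 0.25, Ptgdr2 −0.10 ± 0.08 and Ptgfr, the receptor for prostaglandin F2alpha, 0.00 ± 0.13. Ptgdr was not well above background.

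Genes downstream of the receptors went in both directions. In the Gq and calcium list 3 of 12 genes passed as lower and 4 as higher (median −0.02). Plcb4, a phospholipase C activated by Gq, fell by 0.76 ± 0.04 (adjusted p = 7.86e-05 in limma), with −0.74, −0.77, −0.80 and −0.71 on arrays 1 to 4. Itpr3, a calcium release channel, rose by 0.62 ± 0.04 (0.60, 0.63, 0.57 and 0.66, adjusted p = 0.000165 in limma). The G protein gene Gnaq was lower at −0.20 ± 0.08, whereas Gna11 had −0.02 ± 0.10. Without array 2 or array 3, 1 gene of the list passed as lower, and the median was 0.06 without array 3.

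Of 18 genes of Gs and cAMP signaling, 4 passed as lower and 5 as higher (median −0.07), and Adcy8 was not well above background. Adcy5, an adenylyl cyclase, fell by 0.70 ± 0.18 (−0.54, −0.96, −0.70 and −0.61, adjusted p = 0.000751 in limma). Pde4b, a phosphodiesterase that degrades cAMP, rose by 0.54 ± 0.18 with the brightest of its 4 probes (0.35, 0.64, 0.73 and 0.43, adjusted p = 0.00260 in limma). Its other probes disagreed, with −0.23 ± 0.05, 0.03 ± 0.14 and 0.36 ± 0.36, and the mean over all 4 was 0.17 (adjusted p = 0.0280 in limma). With the deposited folds both Adcy5 and Pde4b missed the threshold, with adjusted p of 0.0523 for Adcy5 and 0.0688 for Pde4b. These were the highest of their alternatives, and the lowest were 6.99e-05 and 0.000834. Gnas, which encodes the Gs subunit, had 0.07 ± 0.22 with the brightest probe and between 0.23 and 0.35 with the others. The other 3 cyclases that passed as lower were Adcy2 (−0.37 ± 0.15), Adcy9 (−0.30 ± 0.20) and Adcy7 (−0.23 ± 0.07), while Adcy4 (0.36 ± 0.15) and Adcy6 (0.17 ± 0.04) passed as higher.

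Of 11 receptor kinases, arrestins and regulators of G protein signaling, 5 passed as higher and 2 as lower (median 0.15), none with a size of 0.5 or more. Rgs2, which shortens Gq signals, had 0.35, 0.34, 0.35 and 0.30 on arrays 1 to 4, and Rgs5, a marker of vascular mural cells, had a mean of −0.38 ± 0.21. Without array 3, 1 gene of this list passed as lower.

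**Figure D4:**
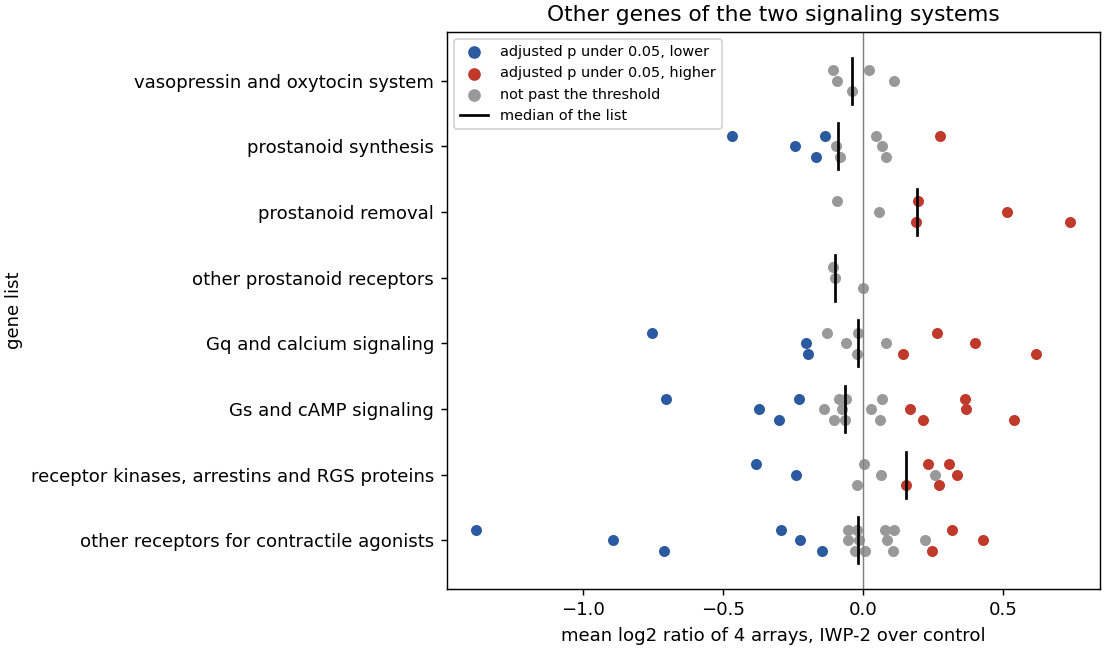
Mean log2 ratio of IWP-2 over control over the 4 arrays (x axis) for each gene tested of 8 lists (y axis). Blue and red points passed the threshold as lower and higher, gray points did not, and the black line is the median of the list. The medians lie between −0.10 and 0.19, and the farthest points are Ednrb (−1.38) and Bdkrb2 (−0.89) on the low side and Slco2a1 (0.74) on the high side.

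Receptors for other contractile agonists served as a wider comparison. Of 20 genes tested, 6 passed as lower and 3 as higher, with a median of −0.02. Ednrb, the endothelin B receptor, fell by 1.38 ± 0.29 (−1.26, −1.51, −1.71 and −1.05, adjusted p = 0.000274 in limma). Bdkrb2, the bradykinin B2 receptor, fell by 0.89 ± 0.22 (−0.58, −0.95, −0.95 and −1.09, adjusted p = 0.000338 in limma). Its probe is dim, and the 1.86-fold lower level was 3.01-fold with the processed intensities and 2.84-fold with the deposited folds. Adra2a, an alpha-2 adrenergic receptor, fell by 0.71 ± 0.17 (−0.72, −0.50, −0.93 and −0.70, adjusted p = 0.000392 in limma). Ednra, the endothelin A receptor, had −0.05 ± 0.05 and did not pass. None of these receptor genes reached the size of the Ptger2 difference. Agtr1b, Bdkrb1, Chrm3 and Tacr1 were not well above background.

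Of the genes beside Avpr1a and Ptger2 on the chromosome, the nearest on each side had small ratios in either direction. On mm9 the nearest probes around Avpr1a belong to A130077B15Rik, 112979 bases toward higher coordinates, with a log2 ratio of 0.18 ± 0.17, and to the transcript ENSMUST00000182346, 282749 bases toward lower coordinates, with 0.04 ± 0.11. Around Ptger2 they belong to 4930431P03Rik, 47038 bases away, with −0.16 ± 0.04, and to Txndc16, 132879 bases away on the other side, with 0.23 ± 0.08. Ptgdr, the next gene past 4930431P03Rik, was not well above background. Farther out, larger and positive ratios were found for a probe without a gene name 311800 bases from Ptger2 (0.70 ± 0.29) and for 1 of the probes of Ppm1h, 489342 bases from Avpr1a (0.51 ± 0.07), while the other Ppm1h probe gave 0.02 ± 0.14.

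The profiles over the 4 arrays were compared by the Euclidean distance of the log2 ratios. No gene came close to Avpr1a, as the nearest were Thy1, Car3, Hdc, Penk and Sp5 at distances of 1.78, 1.84, 1.85, 2.35 and 2.81, with mean log2 ratios of −3.25, −3.26, −3.20, −2.97 and −2.72. Ptger2 had closer neighbors, with Ahr at a distance of 0.26 (mean −2.31 ± 0.14), Epha8 at 0.35 (−2.54 ± 0.20), Alx1 and Notumos at 0.41 each (−2.36 ± 0.10 and −2.39 ± 0.18) and Fzd10 at 0.46 (−2.30 ± 0.12). Notumos was not well above background in the treated channel of any array, so that its value is no measured level there. With 4 arrays this distance mainly reflects the size of the fall.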

How the data were processed

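The authors scanned 4 two-color Agilent arrays and ran Feature Extraction 10.7.3.1; the deposited files give raw and processed intensity per channel, and a log10 ratio used here only to check direction. A deposited table of signed fold changes (score, 1 decimal, normalization not stated) served as an alternative. Raw intensities were corrected with normexp (offset 50) and loess-normalized within arrays (span 0.3) in limma 3.58.1 (R 4.3.3). Control and outlier spots were left out and the 4 spots of a probe averaged. Probes were kept if well above background in a group's channel on all 4 arrays, with more than 0.5 of their spots. Each gene was tested by the brightest of its kept probes. The limma fit had a dye term, with Benjamini-Hochberg adjustment over 22461 genes and a threshold of 0.05. Mean ± SD is over arrays (n = 4), whose number limits the precision.

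The members and lists were chosen with earlier results of these data known. From each list, genes past the threshold, alike in direction on 4 arrays and with a size of at least 0.5 were named with their p (at most 4), beside Axin2, the 5 nearest profiles and the neighboring genes. Other list genes were named after their values were seen. Alternatives covered background, scaling, dye term, filters, probe choice and single arrays. Probe positions are the files' on mm9, and no exon is assigned, since an annotation of mm9 was not used here.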

Additional observations from a re-analysis of the deposited data

Results flagged for a closer look

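Of 31 sets of array values checked for a single array standing apart, 2 met the criterion, where chance gives 1.55 (about 1 in 20). The median of the Gq and calcium list was 0.10 on array 1 and between −0.06 and −0.04 on the others. The median of the Gs and cAMP list was −0.10 on array 3 and between 0.01 and 0.03 on the others. None of the 10 receptor and cyclooxygenase genes met it.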

How the results depend on the processing

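The ratios of dim probes, Bdkrb2 included, depended on the background correction. Avpr1a and Ptger2 had log2 ratios of −4.37 and −2.73 with an offset of 16, −4.65 and −3.16 with the processed signals and −4.67 and −3.22 with the deposited folds, and Oxtr had 0.35 with either of the last. The median ratio of the WNT targets, −1.39, was −1.47 over probes with a signal over 100 and −1.10 over all probes of a gene.

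The deposited folds, which are rounded, gave 2050 lower and 1833 higher genes, 2 of the 10 genes lower and 0 higher, 1 lower gene for Gq and calcium, 2 higher and 1 lower for Gs and cAMP, 2 higher for removal, and 3 higher and 0 lower for the kinases, arrestins and regulators. With the 8 channels as separate samples and no replicate block, 2067 genes were lower and 2039 higher, 1 of the 10 genes was higher, and the lists held 1 higher gene for Gq and calcium, 3 for Gs and cAMP, 0 for synthesis and 3 for the kinases, arrestins and regulators. Lower genes of synthesis numbered 2 there, with the processed signals and with no dye term, and 1 kinase, arrestin or regulator gene was lower with the processed signals.

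Leaving out each array in turn gave 2177 to 2811 lower genes, 1 to 4 lower Gq and calcium genes (list median −0.017 to 0.061), 2 to 4 higher removal genes, 2 to 3 lower synthesis genes, 1 to 2 lower kinase, arrestin or regulator genes and 0 to 1 lower vasopressin and oxytocin genes. The other 546 values moved by less than the spread or stayed within 1.5 times the count, and 0 results past the threshold changed sign. Ptgir, Ptgs1 and the medians of the Gq and calcium, vasopressin and oxytocin, and contractile agonist receptor lists, all near 0 beside their spread, took the other sign under some settings. Oxtr, Ptgir, Ptgs2, Bdkrb2 and the list of other prostanoid receptors gave no value where only probes with a signal over 100 were kept. No scaling moved the median of all genes beyond −0.01 to 0.02. Each array holds 1 treated and 1 control pool, so the ratios of the fit are paired by array throughout.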
